A study of Mus musculus with 2 samples.

Results

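Spinous keratinocytes of the interfollicular epidermis that held little transcript of the granular layer were examined in 2 single-cell RNA libraries, 1 from control and 1 from Gli2EKO skin. These cells were chosen by measured values. A cell was kept when it had more than 1000 and fewer than 8000 detected genes and less than 15% mitochondrial UMIs (unique molecular identifiers, the counted transcripts). It was then taken as a spinous cell when it held at least 50 UMIs of Krt1 and Krt10 together, and fewer than 10 UMIs of Lor, Flg, Flg2 and Ivl together, per 10000 UMIs. The rule found 428 of the 8206 kept cells, 171 of 4844 in the control library and 257 of 3362 in the Gli2EKO library.

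Both libraries came from the dissociated dorsal back skin epidermis, with its hair follicles, of mice at postnatal day 2 on a C57BL/6N background. The Gli2EKO mice were K14Cre tg; Gli2 fl/fl, in which the Cre recombinase is driven by the keratin 14 promoter in keratinocytes and the floxed transcription factor gene Gli2 is deleted from them. The control library is labelled WT genotype, while the study's methods give its controls as floxed littermates that lacked the Cre recombinase, of either sex. The number of mice behind each library was not stated in the sources used here. With 1 library per genotype, a difference between genotypes cannot be told apart from a difference between the libraries, and none was tested. All intervals given are exact 95% intervals that cover counting error only.

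The epidermis renews itself from a basal layer, which is attached to the basement membrane and expresses the keratins Krt5 and Krt14. A keratinocyte that leaves this layer becomes a spinous cell, switches to the keratin pair Krt1 and Krt10 and builds many desmosomes, the junctions that bind keratin filaments of neighbouring cells together. In the granular layer above, loricrin (Lor), filaggrin (Flg) and involucrin (Ivl) are made for the cornified envelope and lipids are prepared for the barrier. GLI2 is a transcriptional effector of Hedgehog signalling, a pathway that drives growth of the hair follicle.

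The kept cells had a median of 12275.5 UMIs in the control and 12169 in the Gli2EKO library, and the libraries shared 0 cell barcodes. Spinous cells were deeper, with medians of 21362 (range 1473 to 68112) and 21137 UMIs (range 2036 to 74347), and together gave 3992168 and 5930025 UMIs. Their median number of detected genes was 4553 and 4416, and their median mitochondrial share was 2.27% and 2.06%. Gli2 was counted in spinous cells at 20.04 CPM (counts per 1000000, the UMIs of a gene scaled to all UMIs of the spinous cells, or of another class, in that library) in the control library and 28.0 CPM in the Gli2EKO library. These are 80 and 166 UMIs at the 3' end of the transcript, and the deleted exons were not stated, so this count does not check the label.

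The values that chose the cells are given as a description. The median of Krt1 and Krt10 together was 313 UMIs per 10000 in control and 290 in Gli2EKO spinous cells, against 1.77 and 1.75 in basal-type cells. The lowest 3 cells inside the keratin limit stood at 51.4, 52.4 and 53.8 in the control and 51.4, 52.5 and 54.9 in the Gli2EKO library, and the highest 3 outside it at 42.9, 45.8 and 48.7 and at 48.3, 48.8 and 49.1. On the granular side the highest 3 spinous cells held 6.58, 7.21 and 7.49 UMIs per 10000 of the 4 late genes in the control library and 6.68, 7.23 and 8.81 in the Gli2EKO library. The cells nearest outside held 10.8, 11.2 and 12.1, and 11.6, 12.9 and 13.7. No UMI of the late genes was counted in 88 control spinous cells (51.5%) and 157 Gli2EKO spinous cells (61.1%). The limit on detected genes and mitochondrial share kept out a further 49 and 55 barcodes that met the marker rule, with medians of 1124 and 1198 UMIs.

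Spinous cells made up 3.53% (3.03 to 4.09) of kept cells in the control library and 7.64% (6.77 to 8.59) in the Gli2EKO library. The ratio of these shares was 2.17 (1.78 to 2.64). Among cells rich in keratin transcripts of any kind the shares were 5.52% (4.74 to 6.38) of 3097 cells and 10.99% (9.75 to 12.3) of 2339 cells. Granular cells, which pass the same Krt1 and Krt10 limit but hold 10 or more UMIs of the late genes, were 20 cells in each library, or 0.413% and 0.595% of kept cells. Basal-type cells, which have high Krt5 and Krt14, little Krt1 and Krt10 and few follicle transcripts, were 216 (4.46%) and 217 cells (6.45%). The spinous share was therefore not alone in being higher in the Gli2EKO library, and of all cells with high Krt1 and Krt10 the spinous cells were 89.5% (84.3 to 93.5) and 92.8% (89.1 to 95.5).

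The cells carried the marker genes of their name in both libraries. Krtdap, a secreted protein of differentiating keratinocytes, ran from 4.74 to 255 UMIs per 10000 in control spinous cells with a median of 79.2, and from 0 to 305 in Gli2EKO spinous cells with a median of 78.2. Npl, N-acetylneuraminate lyase, had medians of 4.17 (0 to 16.8) and 5.01 (0 to 15.7), and Dsc1, a desmosomal cadherin of the upper layers, had medians of 0.744 (0 to 22.5) and 0.678 (0 to 14.5). The ranges of the libraries overlapped almost wholly for each of these genes. Summed over cells, Krtdap stood at 9176 and 9384 CPM in spinous cells and at 1422 and 1551 CPM in basal-type cells. Npl stood at 506 and 542 CPM against 38.0 and 48.0 CPM, and Dsc1 at 201 and 197 CPM against 13.5 and 23.4 CPM. As Krt1 and Krt10 separated these classes, the contrast is a description. Against granular cells, 0 of these 3 genes were at least 2-fold higher and 1 was lower, so they did not set spinous from granular cells. At a common depth of 2000 UMIs per cell, 55.9% of control and 59.1% of Gli2EKO spinous cells held a UMI of Npl, against 4.92% and 8.33% of the immune and endothelial cells that served as background (median depths before thinning 21362 and 21137 UMIs against 11607 and 14199).

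The promoters of Krt10 and of Krtdap are shown because these genes define the cells, and that of Krt77 because its level differed most between the libraries among the spinous genes. Each run is the 250 bases before the start of the gene's canonical transcript in GENCODE on GRCm39, read 5′ to 3′ along the strand of the gene. Krt10 lies at chr11:99280196-99280445 (minus strand), Krtdap at chr7:30487077-30487326 (plus strand) and Krt77 at chr15:101778246-101778495 (minus strand). Capitals mark a match on either strand to the AP-1 motif TGANTCA, the C/EBP motif TTGCNNAA or the TATA box TATAAA.
Krt10 promoter: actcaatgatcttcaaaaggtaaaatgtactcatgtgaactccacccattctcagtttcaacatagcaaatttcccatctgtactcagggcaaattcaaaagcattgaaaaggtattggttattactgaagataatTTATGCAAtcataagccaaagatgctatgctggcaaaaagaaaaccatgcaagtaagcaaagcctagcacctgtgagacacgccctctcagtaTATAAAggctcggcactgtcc
Krtdap promoter: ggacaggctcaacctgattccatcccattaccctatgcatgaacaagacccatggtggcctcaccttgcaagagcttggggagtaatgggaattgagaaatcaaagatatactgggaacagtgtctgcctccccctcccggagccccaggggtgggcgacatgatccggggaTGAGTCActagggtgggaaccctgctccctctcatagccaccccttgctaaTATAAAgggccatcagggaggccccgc
Krt77 promoter: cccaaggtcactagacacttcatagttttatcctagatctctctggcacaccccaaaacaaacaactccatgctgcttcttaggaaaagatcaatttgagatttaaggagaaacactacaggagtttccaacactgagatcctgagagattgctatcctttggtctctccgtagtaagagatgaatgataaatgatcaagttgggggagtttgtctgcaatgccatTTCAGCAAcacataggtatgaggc
The Krt10 promoter held a C/EBP match that began 114 bases and a TATA box that began 21 bases before the start. The Krtdap promoter held an AP-1 match that began 78 bases and a TATA box that began 27 bases before the start, and that of Krt77 a C/EBP match that began 24 bases before it. Of 21770 promoters of protein-coding genes of the same length, 6.17% held the AP-1, 9.34% the C/EBP and 11.9% the TATA motif, and no match overlapped another in the windows shown. A match is a description of the letters and not evidence of a bound factor.

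**Figure D1:**
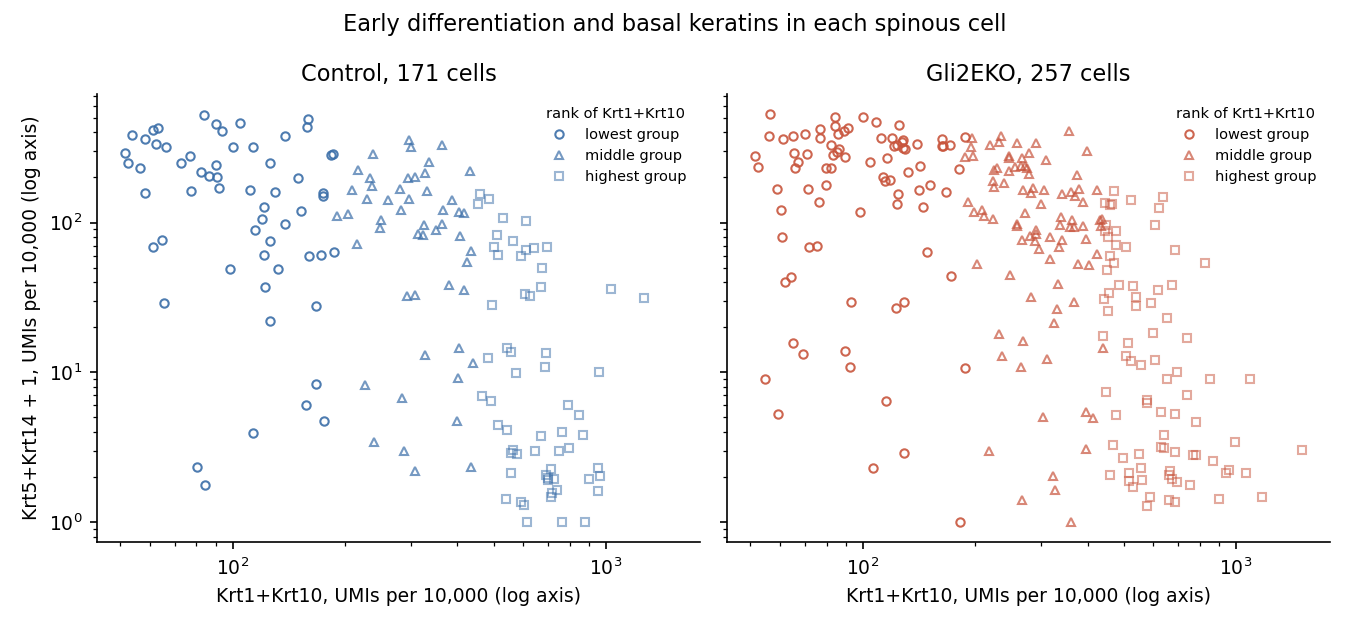
Each point is 1 spinous cell, with its UMIs of Krt1 and Krt10 per 10000 on the horizontal log axis and its UMIs of Krt5 and Krt14 per 10000 plus 1 on the vertical log axis, and the panels are the 171 control and 257 Gli2EKO cells. Point shapes mark the 3 equal groups by rank of Krt1 and Krt10, and the median of Krt5 and Krt14 falls from 165 and 234 in the lowest group to 4.15 and 8.03 in the highest, where 13 of 61 control and 18 of 82 Gli2EKO cells still hold 50 or more.

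The spinous cells spanned a wide range of differentiation. Krt5 and Krt14 together had a median of 67.8 UMIs per 10000 in control and 87.4 in Gli2EKO spinous cells, with highest values of 518 and 530. At least 50 UMIs of these basal keratins were held by 96 control cells (56.1%) and 155 Gli2EKO cells (60.3%), and fewer than 10 by 51 (29.8%) and 62 cells (24.1%). A minority also carried transcripts of the hair follicle. At least 20 UMIs per 10000 of Krt79, a keratin of the upper follicle, were found in 17 control (9.94%) and 14 Gli2EKO cells (5.45%), and at least 20 of inner root sheath and hair shaft genes in 8 (4.68%) and 9 cells (3.50%). Cells past either limit were 25 (14.6%) and 21 (8.17%), and without them the spinous share was 3.03% and 7.06% of kept cells. Krt17, a keratin of follicle and stressed epithelium that was not part of those limits, reached 20 UMIs per 10000 in 25 control (14.6%) and 36 Gli2EKO cells (14.01%). Among the highest 8% of doublet scores of each library were 9 (5.26%) and 15 (5.84%) of the spinous cells.

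To see how the spinous cells vary among themselves, all 428 were ranked by Krt1 and Krt10 and split into 3 equal groups of 59, 51 and 61 control cells and 83, 92 and 82 Gli2EKO cells. Depth moved with this rank, with median UMIs of 16338, 21491 and 25946 in the control and 17034, 21204 and 24968.5 in the Gli2EKO library, and its part in the differences was not tested. Of 3904 genes with enough UMIs, 1.9% were at least 2-fold higher and 3.79% at least 2-fold lower in the highest than in the lowest group of each library. As Krt1 and Krt10 chose these groups, the values that follow are a description. Follicle markers also fell over the groups, with 5 of 7 genes at least 2-fold lower and 0 higher. They summed to 7998.5, 2827.5 and 1014 CPM in control and to 7521, 5388 and 1169 CPM in Gli2EKO cells. The lowest group thus held more follicle transcript, and its part in the other declines was not tested.

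The genes of the basal layer declined step by step. Krt14 stood at 13283, 8491 and 1828 CPM in the lowest, middle and highest group of control cells, and at 14563, 9685 and 2255 CPM in Gli2EKO cells. Col17a1, the collagen of the hemidesmosome, stood at 334, 185 and 51.6 CPM and at 293, 94.8 and 22.4 CPM. Itgb4, the integrin subunit of the same junction, stood at 61.1, 28.8 and 5.46 CPM and at 65.6, 13.1 and 4.57 CPM. Of 14 basal keratin and adhesion genes with enough UMIs, 11 were at least 2-fold lower and 0 higher in the highest group. Lmo1, a LIM-domain cofactor of transcription, and Tgfbi, a secreted matrix protein, followed the same course, Lmo1 from 107 to 8.499 CPM in control and from 117 to 6.85 CPM in Gli2EKO cells. Of 15 G2 and M phase genes 7 were at least 2-fold lower and 0 higher, and of 4 S phase genes 1 was lower and 0 higher. Top2a, which untangles DNA before division, stood at 201 and 20.6 CPM in the lowest and highest control groups and at 90.5 and 21.0 CPM in the Gli2EKO groups.

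Genes of later differentiation moved both ways over the same groups. Of 10 late genes with enough UMIs 5 were at least 2-fold higher and 2 lower in the highest group, and the list summed to 2474, 1382 and 2071 CPM in control and to 3019, 1195 and 1858 CPM in Gli2EKO cells. The lower genes were the kallikrein Klk7 (372, 174 and 115 CPM against 230.2, 64.5 and 15.99 CPM) and the protease inhibitor Cst6 (1247, 197 and 312 CPM against 2108, 110 and 302 CPM). Other genes increased. The protease inhibitor Serpinb12 stood at 20.1, 86.5 and 378 CPM in control and at 32.1, 187 and 512 CPM in Gli2EKO cells. Asprv1, the protease that processes profilaggrin, stood at 86.6, 231 and 447 CPM and at 97.0, 213 and 412 CPM. Krtdap increased from 4969 to 12646 CPM and from 5397 to 13067 CPM, and Npl from 274 to 722 CPM and from 353 to 699 CPM. Of 12 genes of barrier lipid synthesis, 4 were at least 2-fold higher in the highest group and 0 lower. They included Elovl4, which makes very long chain fatty acids (132, 260.4 and 616 CPM against 107, 188 and 406 CPM), and Acer1, an alkaline ceramidase (40.1, 75.3 and 208 CPM against 36.7, 80.3 and 176 CPM). Of 14 spinous genes beyond the markers 6 were at least 2-fold higher and 0 lower. Of 12 desmosomal genes 2 were higher and 1 lower, and Dsp, the plakin that links keratin to the junction, stood at 2373, 2268 and 3065 CPM in control and at 1595, 1682 and 2356 CPM in Gli2EKO cells. Of 32 transcription factors 0 were at least 2-fold higher and 1 lower, against 1.9% and 3.79% over all genes.

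**Figure D2:**
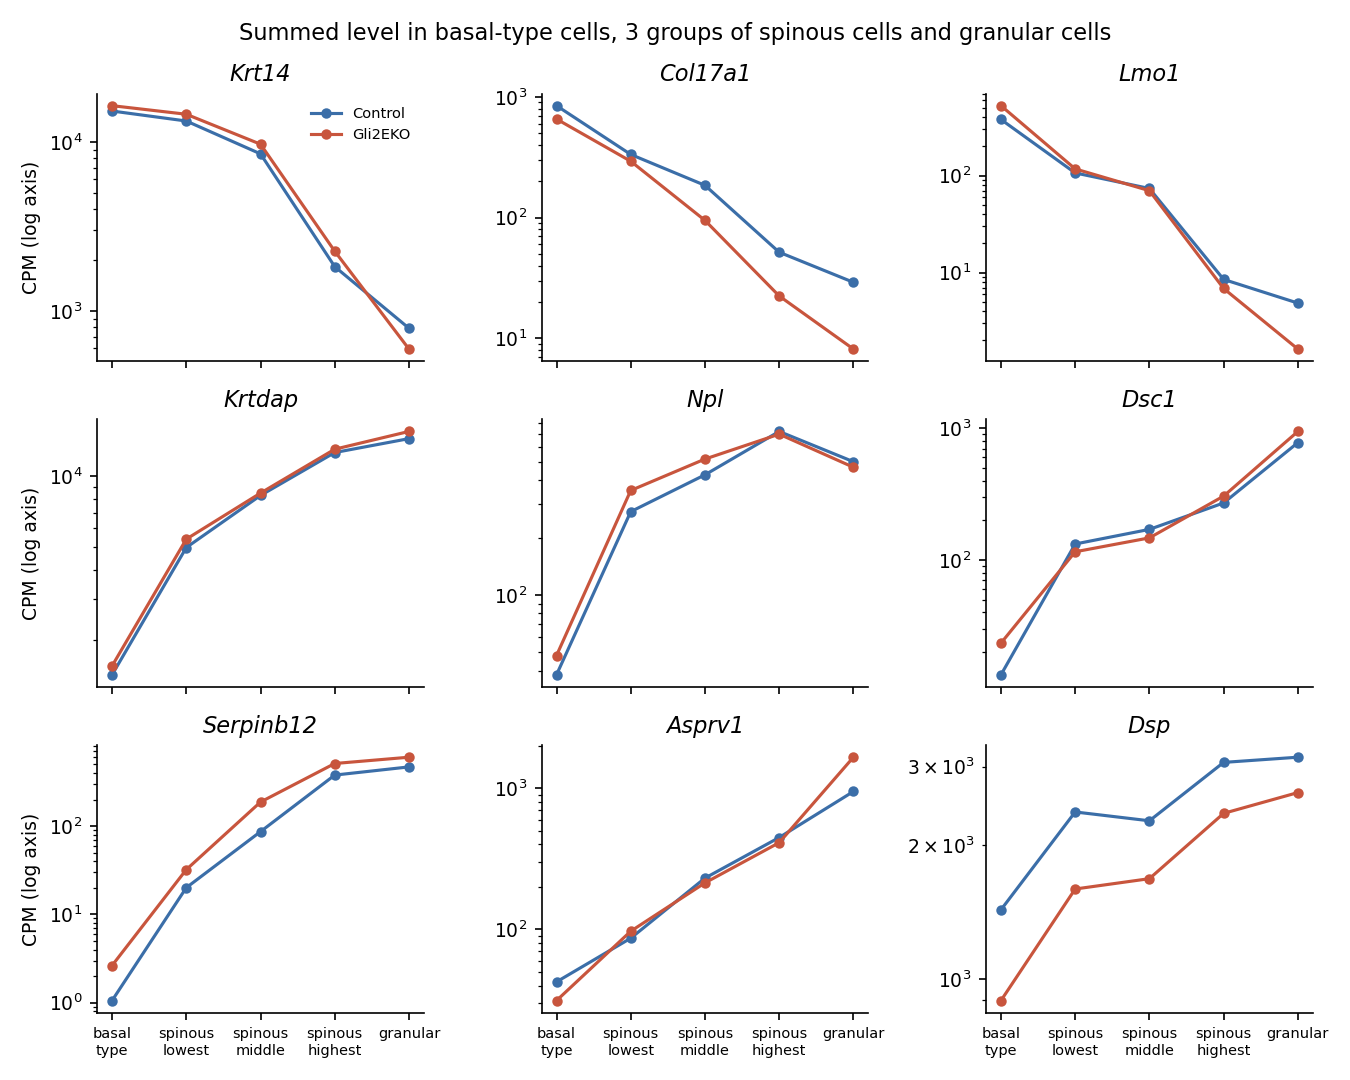
Summed level in CPM (log axes) of 9 genes in basal-type cells, in the lowest, middle and highest group of spinous cells and in granular cells, with 1 line per library. Krt14, Col17a1 and Lmo1 decline from left to right, Krtdap, Dsc1, Serpinb12 and Asprv1 increase, Npl is highest in the highest spinous group, and Dsp runs from 2268 to 3065 CPM over the control and from 1595 to 2356 CPM over the Gli2EKO spinous groups.

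Against basal-type cells, 3.83% of 7600 genes were at least 2-fold higher and 10.3% at least 2-fold lower in the spinous cells of each library. Krt1 and Krt10, with Krt5, Krt14 and follicle genes on the basal side, separated these classes, so the contrast is a description. Of 14 further spinous genes, 13 were higher. Calm4, a calmodulin-like protein of the epidermis, stood at 3520.1 and 3027 CPM in spinous cells and at 335 and 263 CPM in basal-type cells, and Ptgs1, cyclooxygenase 1, at 261 and 252 CPM against 15.8 and 17.8 CPM. Skint9 and Skint6, members of a butyrophilin-like family expressed by keratinocytes, were near 0 in basal-type cells. Skint9 stood at 214 and 159 CPM in spinous cells against 1.32 and 0.585 CPM, and Skint6 at 184 and 127 CPM against 1.06 and 0.878 CPM. Notch3, a receptor of the pathway that promotes spinous commitment, stood at 77.9 and 69.6 CPM against 11.6 and 8.78 CPM, and its target Hes1 at 248 and 212 CPM against 82.1 and 86.0 CPM. Of 15 Notch genes, 3 were higher and 1 lower. Of 13 desmosomal genes, 6 were higher and 1 lower, among them Dsg1a, a desmoglein of the upper layers, at 363 and 322 CPM against 70.2 and 56.5 CPM, while Dsg2 stood at 15.0 and 16.7 CPM against 103 and 76.9 CPM. Among transcription factors, 6 of 37 were higher and 0 lower, including Grhl1 (160.3 and 110.3 CPM against 22.7 and 22.8 CPM) and Zfp750 (119 and 108 CPM against 10.0 and 20.8 CPM), regulators of differentiation.

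Genes of attachment and division were among the 785 genes lower than in basal-type cells. Of 20 basal keratin and adhesion genes, 17 were at least 2-fold lower. Itgb1 stood at 59.9 and 56.8 CPM against 361 and 276 CPM. Of 34 S phase genes 30 were lower, and of 44 G2 and M phase genes 38 were lower, with Mki67, a marker of cycling cells, at 120.0 and 53.1 CPM against 409 and 267 CPM. Of 8 Hedgehog genes, 5 were lower and 0 higher, and Ihh and Dhh had 0 UMIs in spinous cells of both libraries. The genes of largest ratio the other way belonged to pigment cells and sebocytes, such as Pmel, Cidea and Elovl3, and the basal-type cells held melanocyte markers at 302 and 238 CPM and sebocyte markers at 648 and 1046 CPM in sum, against 9.27 and 9.61 CPM and 116 and 98.0 CPM in spinous cells. The part of these cells in the lower genes was not tested.

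Against granular cells, 6.98% of 5614 genes were at least 2-fold higher and 3.99% at least 2-fold lower in the spinous cells of each library. Lor, Flg, Flg2 and Ivl separated these classes, so this contrast, and the lower level of other late genes in it, is a description. The granular cells were 20 per library and also held Krt17 at 6613 and 5251 CPM and Krt79 at 2279.6 and 2992 CPM, against 1439 and 1445 CPM and 1005 and 680.4 CPM in spinous cells, so some of them carried transcripts of the follicle. Of 16 basal genes, 13 were higher in spinous cells, led by the basal keratin Krt15 at 1672 and 1620 CPM against 63.0 and 8.13 CPM. Thbs1, the matrix protein thrombospondin 1, stood at 154 and 128 CPM against 4.84 and 4.88 CPM. Of 12 genes of the late programme, 11 were lower. Spink5, the inhibitor of skin kallikreins, stood at 166 and 133 CPM against 2220 and 1994 CPM, and Klk7, a kallikrein that sheds cornified cells, at 204 and 89.2 CPM against 1198 and 1446 CPM. Of 17 barrier lipid genes 9 were lower, with Elovl1 at 115 and 124 CPM against 549 and 556 CPM, and of 22 G2 and M phase genes 8 were higher.

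Genes that peaked in spinous cells were few. Of 5583 genes tested against both neighbours, 5 were at least 2-fold above basal-type and granular cells in each library (0.0896%) and 3 below both (0.0537%). The 4 named here were chosen after their values were seen. Clca3a2, of the calcium-activated chloride channel regulator family, stood at 1367 and 1301 CPM in spinous cells against 411 and 300.2 CPM in basal-type and 337 and 89.4 CPM in granular cells. Ctsc, the lysosomal protease cathepsin C, stood at 204 and 240.1 CPM against 51.2 and 56.5 CPM and 90.4 and 86.1 CPM. Also named are Eif4ebp1, a repressor of translation initiation (106 and 107 CPM), and Arl4d, a small GTPase (53.4 and 40.3 CPM).

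Against all other kept cells, 3.36% of 13187 genes were at least 2-fold higher and 30.1% at least 2-fold lower in both libraries. Gadl1, a decarboxylase, stood at 97.7 and 168 CPM in spinous cells against 2.04 and 5.81 CPM elsewhere, Tdh, threonine dehydrogenase, at 115 and 141 CPM against 4.84 and 6.16 CPM, and Cyp2f2, a cytochrome P450, at 84.4 and 47.4 CPM against 2.15 and 0.981 CPM. Follicle markers were not low in the spinous cells, at 3500 and 4379 CPM in sum against 4134 and 4627 CPM in all other kept cells. Markers of cells other than keratinocytes were lower. Immune markers summed to 17.3 and 7.42 CPM, endothelial markers to 1.75 and 4.89 CPM and melanocyte markers to 9.27 and 9.61 CPM. Cdh5, Cldn5 and Emcn had 0 UMIs in both libraries, as had Ptprc, Cd3e, Trdc and Kit in the Gli2EKO library and Tyrp1 and Myh11 in the control library. Fibroblast markers were higher, at 492 and 279 CPM, and smooth muscle markers stood at 19.5 and 82.6 CPM.

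The genotypes were compared over the 7770 genes with at least 100 UMIs in the spinous cells of both libraries together. Of these, 1.47% (114 genes) were at least 1.5-fold higher and 3.55% (276 genes) at least 1.5-fold lower in the Gli2EKO library, and the median log2 ratio was -0.08. Scaled by the median of gene ratios in place of total UMIs, 165 genes were higher and 187 lower. The markers of the class did not pass 1.5-fold in either direction. Krtdap differed by 0.03 on the log2 scale (0.01 to 0.05), Npl by 0.10 (0.02 to 0.18) and Dsc1 by -0.03 (-0.16 to 0.10). The rule genes Krt10 (24487 and 21575 CPM) and Krt1 (16665 and 15834 CPM) differed by -0.18 and -0.07.

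Many of the widest ratios rested on few cells. Among the 24 genes with the largest or smallest ratio, 17 had 50% or more of their UMIs in 5 cells of the library where they were higher. Tchh, trichohyalin of the inner root sheath, stood at 114 and 1232 CPM, but 96.5% of its Gli2EKO UMIs lay in 5 cells. Krt35, a hair shaft keratin, stood at 228 and 14.3 CPM, with 97.1% of its control UMIs in 5 cells. Krt6b, a keratin of stressed and follicular epithelium, had 0 UMIs in control spinous cells and 40.8 CPM in Gli2EKO spinous cells, at least 54.3-fold above the level of 3 UMIs in the control library, with 81.4% in 5 cells. Of the 7160 genes with less than 30% of their UMIs in 5 cells in both libraries, 50 were at least 1.5-fold higher and 160 at least 1.5-fold lower in the Gli2EKO library. The 10 of largest and 10 of smallest ratio among those with at least 200 UMIs, chosen after their values were seen, are given after Krt77, which had 43.6% of its Gli2EKO UMIs in 5 cells.

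Krt77, a type II keratin of differentiating epidermis and sweat ducts (chr15, 101767166 to 101778245 on GRCm39, minus strand), was the spinous gene that differed most. It was counted in 77 of 171 control and 63 of 257 Gli2EKO spinous cells, with a median of 0 and a highest value of 66.0 and 39.9 UMIs per 10000. Summed, it stood at 447 CPM (427 to 469) in the control and 118 CPM (109 to 127) in the Gli2EKO library, a log2 ratio of -1.93 (-2.05 to -1.80). In the lowest, middle and highest groups it stood at 493, 467 and 402 CPM in control cells. In Gli2EKO cells it stood at 129, 128 and 99.1 CPM, so the libraries were apart in each group. At 2000 UMIs per cell, 26.5% (20.01 to 33.8) of control and 9.73% (6.39 to 14.02) of Gli2EKO cells held a UMI, against 0% and 1.19% of immune and endothelial cells. It was also lower in Gli2EKO granular cells (707 and 273 CPM) and, at low levels, in basal-type cells (7.92 and 1.46 CPM). The granular cells were only 20 per library and unlike between them. Their medians per 10000 UMIs were 196 and 504 for Krt1 and Krt10, and 37.8 and 78.1 for the late genes. Its neighbour in the genome, Krt1, differed by -0.07 on the log2 scale.

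Stfa1, a cystatin A-like inhibitor of cysteine proteases, was higher in the Gli2EKO library throughout. Its control values ran from 0 to 181 UMIs per 10000 with a median of 24.3, and its Gli2EKO values from 0 to 139 with a median of 48.1, so the ranges overlapped while the medians stood apart. The sums were 2912 CPM (2859 to 2965) and 5425 CPM (5366 to 5485), a log2 ratio of 0.90 (0.87 to 0.93). By group they were 1943, 2812 and 3632 CPM in control and 4149, 5737 and 5999 CPM in Gli2EKO cells. Stfa1 belongs to a cluster of near-identical genes, so its reads may be shared with copies and its value is uncertain. Stfa2, of the same family, stood at 123 and 219 CPM.

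H19, an imprinted long noncoding RNA, had a median of 0.626 (0 to 27.6) in control and 2.17 (0 to 48.6) UMIs per 10000 in Gli2EKO spinous cells. It summed to 259 CPM (243 to 275) and 517 CPM (499 to 536), a log2 ratio of 1.00 (0.90 to 1.10). It declined along differentiation in both libraries, from 447 to 317 and 90.5 CPM in control and from 928 to 521 and 228 CPM in Gli2EKO cells. Gas1, a membrane co-receptor for Hedgehog ligands, had medians of 0.388 and 0.894 UMIs per 10000 and summed to 86.9 CPM (78.0 to 96.6) and 154 CPM (144 to 165), a log2 ratio of 0.83 (0.65 to 1.01). Igfbp2, a binding protein of insulin-like growth factors, was counted in 74 of 171 and 174 of 257 cells and summed to 79.7 and 147 CPM, a ratio of 0.88 (0.70 to 1.07). Krt16, a keratin induced in stressed epidermis, stood at 716 and 1402 CPM, 0.97 (0.91 to 1.03). 2610528A11Rik, named Gpr15lg in newer annotation and known as an epithelial ligand of the receptor GPR15, stood at 109 and 207 CPM, 0.92 (0.76 to 1.08). The remaining higher genes were the tetraspanin Cd81, Tssc4, the kallikrein Klk10 and Gm5724, at log2 ratios of 0.80 to 0.91.

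**Figure D3:**
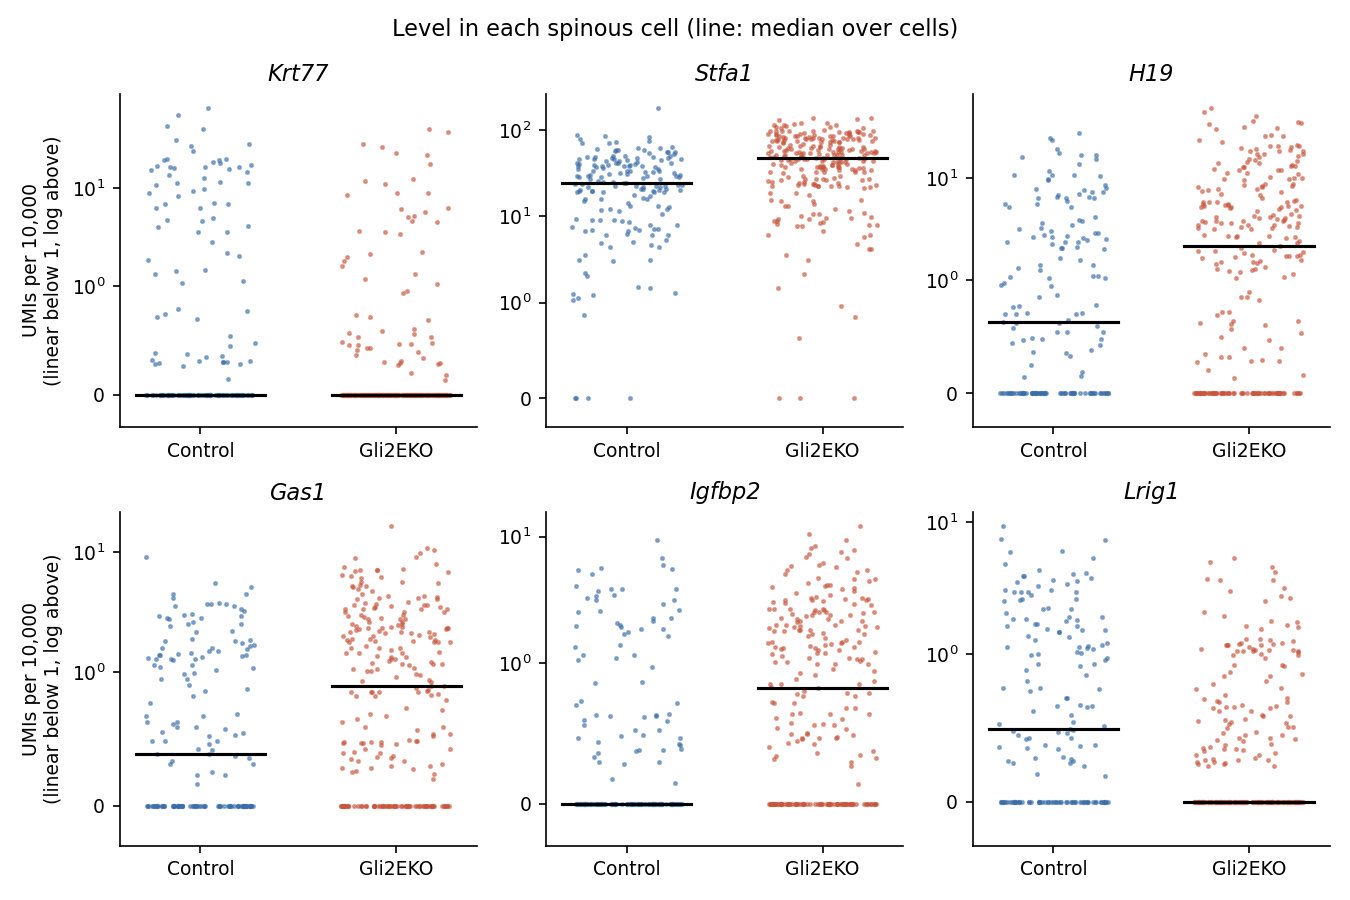
UMIs per 10000 of 6 genes in each of the 171 control and 257 Gli2EKO spinous cells (vertical axes linear below 1 and logarithmic above), with a line at the median over cells. Stfa1, H19, Gas1 and Igfbp2 have the higher median in Gli2EKO cells and Lrig1 in control cells, and the points of both libraries overlap in each panel.

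Among the lower genes, Lrig1, a membrane inhibitor of growth factor receptors that marks upper follicle progenitors, had a median of 0.495 (0 to 9.33) in control and 0 (0 to 5.31) UMIs per 10000 in Gli2EKO cells. Lrig1 summed to 97.2 CPM (87.8 to 107) and 43.3 CPM (38.2 to 49.0), a log2 ratio of -1.17 (-1.40 to -0.93). By group it stood at 162, 103 and 49.2 CPM in control and at 71.5, 42.0 and 25.1 CPM in Gli2EKO cells. The control cell with the most Krt77, 66.0 UMIs per 10000, held 0 of Stfa1, 0.647 of H19 and 3.88 of Lrig1. Another with 55.3 of Krt77 held 2.23, 0 and 2.97. A further control cell with 43.5 of Krt77 held 7.06 of Stfa1, and also 213 of Krt79 and 190 of Krt17. The ratios of these genes may not be independent, and how they vary together over cells was not tested. The cells given here were picked by their Krt77 and cannot show it. Amotl2, a regulator of Hippo signalling, stood at 45.1 and 21.4 CPM, and Slc12a2, the sodium, potassium and chloride cotransporter, at 79.2 and 39.1 CPM. Bhlhe40, a repressor of the circadian loop, stood at 93.4 and 48.9 CPM. Cat, the enzyme catalase, stood at 47.3 and 25.5 CPM and Me1, malic enzyme 1, at 39.8 and 19.1 CPM. The remaining 4 were the actin regulators Rai14 and Cobl, the transcription factor Sox21 and the kinase Clk2, at log2 ratios of -1.04 to -0.90.

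**Figure D4:**
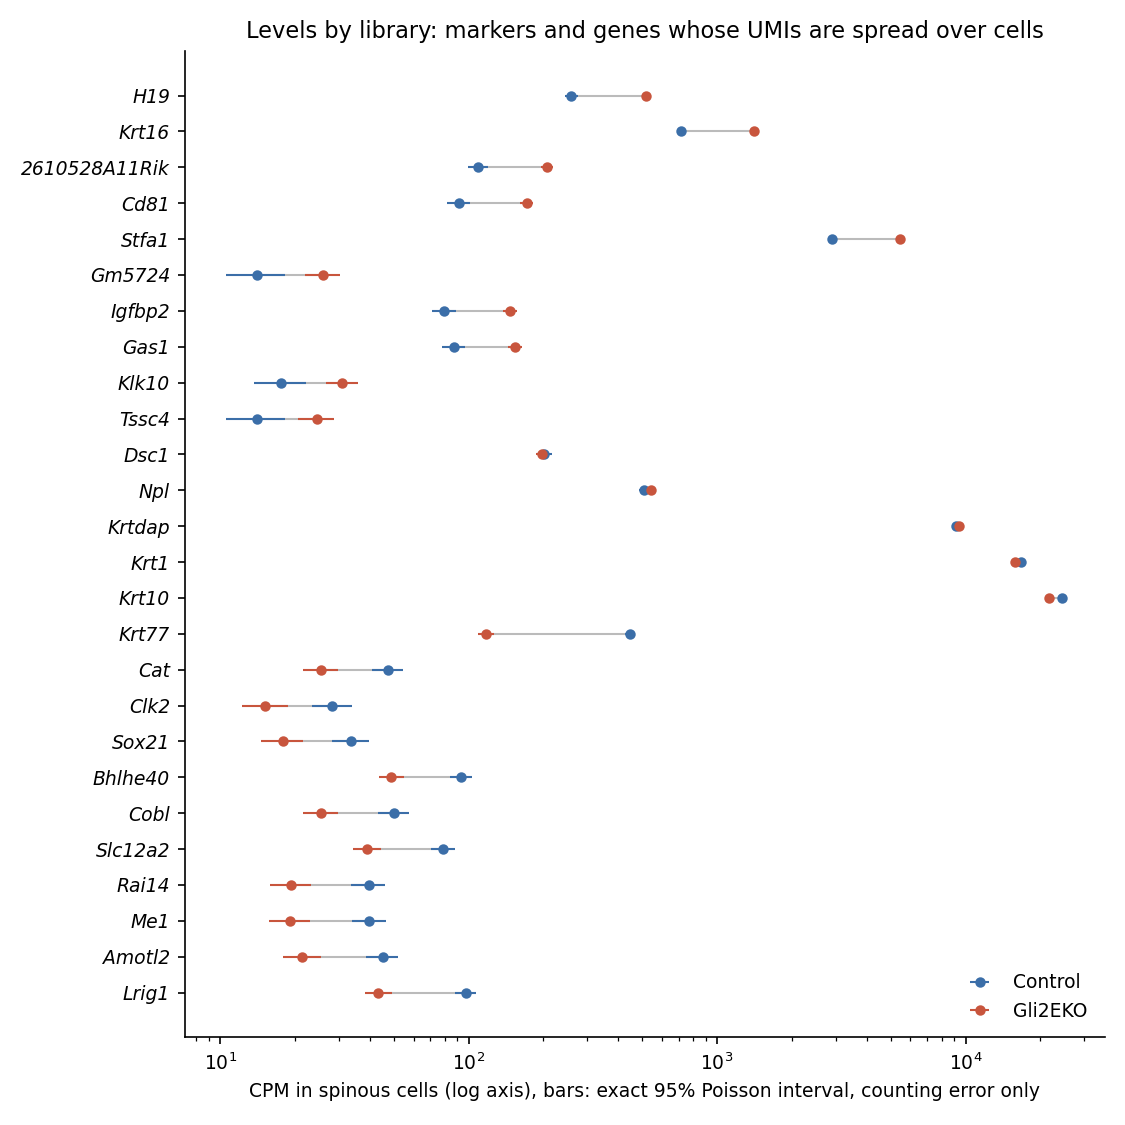
CPM (log axis) in control and Gli2EKO spinous cells of the 5 markers, of Krt77 and of the 10 highest and 10 lowest genes with at least 200 UMIs and less than 30% of them in 5 cells in both libraries, with exact 95% Poisson intervals that cover counting error only. The markers Krtdap, Npl and Dsc1 nearly coincide, while Krt77 stands at 447 and 118 CPM.

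Of 13 desmosomal genes 0 passed 1.5-fold in either direction between the libraries, with log2 ratios from -0.51 to 0.15 and a median of -0.17 against -0.08 over all genes. Over all 7770 genes 1.47% were higher and 3.55% lower, and the list counts stand beside these shares. Dsp stood at 2626 and 1908 CPM (-0.46, -0.50 to -0.42), the plakin Ppl at 224 and 157 CPM (-0.51) and the basal desmoglein Dsg3 at 90.2 and 65.4 CPM (-0.46), while Dsg1a stood at 363 and 322 CPM (-0.17). Of 17 junction and cadherin genes 2 were lower, Cldn4, a tight junction protein (30.3 and 17.9 CPM), and the basal cadherin Cdh3 (56.4 and 37.4 CPM). Of 18 basal genes, Postn, a matrix protein, was higher (200.4 and 344 CPM, 0.79) and Dst and Cdh3 were lower, while Krt14 stood at 7058 and 8197 CPM.

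Of 38 transcription factors 0 were higher and 4 lower, with a median of -0.24, where 1.47% of all genes were higher and 3.55% lower. The 4 were Sox9, a follicle factor (64.6 and 29.2 CPM, with 52.3% of control UMIs in 5 cells), the inhibitors of basic helix-loop-helix factors Id2 and Id1, and Vdr, the vitamin D receptor (51.6 and 30.5 CPM). Klf4, which drives barrier formation, stood at 635 and 446 CPM (-0.51, -0.59 to -0.43), and Trp63, the master regulator of stratified epithelium, at 272 and 246 CPM. Of 15 Notch genes, Jag2 alone was lower, and Notch3 differed by -0.16 (-0.38 to 0.06). Of 18 calcium genes, Prkca alone was lower. In the Hedgehog list of 7, Gas1 was higher and Cdon, another co-receptor, lower, and the target Ptch1 stood at 32.3 and 30.4 CPM.

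Of 16 late genes 1 was higher and 3 lower, namely Klk7 (204 and 89.2 CPM, -1.19), Klk5 (66.1 and 38.6 CPM, -0.78) and the antimicrobial Pglyrp4. The higher gene, Cnfn, had 91.2% of its Gli2EKO UMIs in 5 cells. Among all genes 1.47% were higher and 3.55% lower, and a list with 1 gene past the fold is a description. Of 20 barrier lipid genes, Elovl4 was lower (372 and 248 CPM, -0.59, -0.69 to -0.48), and of 22 sterol synthesis genes, Lss (29.8 and 17.7 CPM). Glycolytic genes passed in 0 of 15 cases with a median of 0.17, and Pkm, pyruvate kinase, stood at 351 and 479 CPM.

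Immediate early genes, which respond to tissue handling as well as to growth signals, were lower in 7 of 28 cases and higher in 0. The shares over all genes were 3.55% lower and 1.47% higher. Fos stood at 1044 and 646 CPM (-0.69, -0.76 to -0.63), Jun at 1522 and 963 CPM (-0.66) and Egr1 at 552 and 364 CPM (-0.60). The heat shock gene Hspb1 stood at 1416 and 2016 CPM (0.51). Of 36 G2 and M phase genes 7 were lower and 0 higher, with Mki67 at 120.0 and 53.1 CPM (-1.18) and 50.9% of its control UMIs in 5 cells. At 2000 UMIs per cell, 10.0% (5.93 to 15.5) and 7.39% (4.51 to 11.3) of spinous cells held a UMI of Mki67, intervals that overlap, against 26.9% and 20.7% of basal-type cells and 36.1% and 26.2% of immune and endothelial cells, which also divide. Of 12 follicle genes 5 were higher and 4 lower, and the widest of these ratios were those carried by 5 cells.

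H19, Cd81 and Tssc4 lie close together on distal chromosome 7, a region known for imprinted genes. The stretch from H19 to Osbpl5 was therefore examined after these values were seen (chr7, 142129262 to 143310722, 1.18 Mb on GRCm39). Of 49 annotated genes there, 10 had at least 100 UMIs in spinous cells, and 5 of these were at least 1.5-fold higher and 0 lower in the Gli2EKO library. H19, Cd81 and Tssc4 prompted the choice of the stretch, and of the other 7 genes 2 were higher, where the share over all genes was 1.47%. Cd81 stood at 91.2 and 171 CPM (0.91, 0.73 to 1.09), Tssc4 at 14.03 and 24.5 CPM (0.80, 0.35 to 1.27) and Phlda2, an imprinted growth-restraining gene, at 7.77 and 17.2 CPM (1.15, 0.56 to 1.78). Tnfrsf23 stood at 6.26 and 27.7 CPM (2.14, 1.53 to 2.81), with 44.0% and 49.4% of its UMIs in 5 cells. Kcnq1ot1, a long noncoding RNA of the same region that is expressed from the paternal chromosome, lay the other way at 107 and 79.6 CPM (-0.43, -0.62 to -0.23). In basal-type cells the log2 ratios were 0.37 for H19, 0.72 for Cd81, 0.96 for Tssc4, 1.89 for Phlda2 and -0.37 for Kcnq1ot1, and in all other kept cells 1.11, 0.63, 0.71, 1.83 and -0.27. Tnfrsf23 had -0.09 (-0.87 to 0.68) in basal-type and 0.77 in all other kept cells. Cd81, Tssc4 and Phlda2 thus passed 1.5-fold in all 3 classes, while H19 and Tnfrsf23 did not pass it in basal-type cells. With 1 library per genotype the pattern cannot be told apart from a difference between the mice used.

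**Figure D5:**
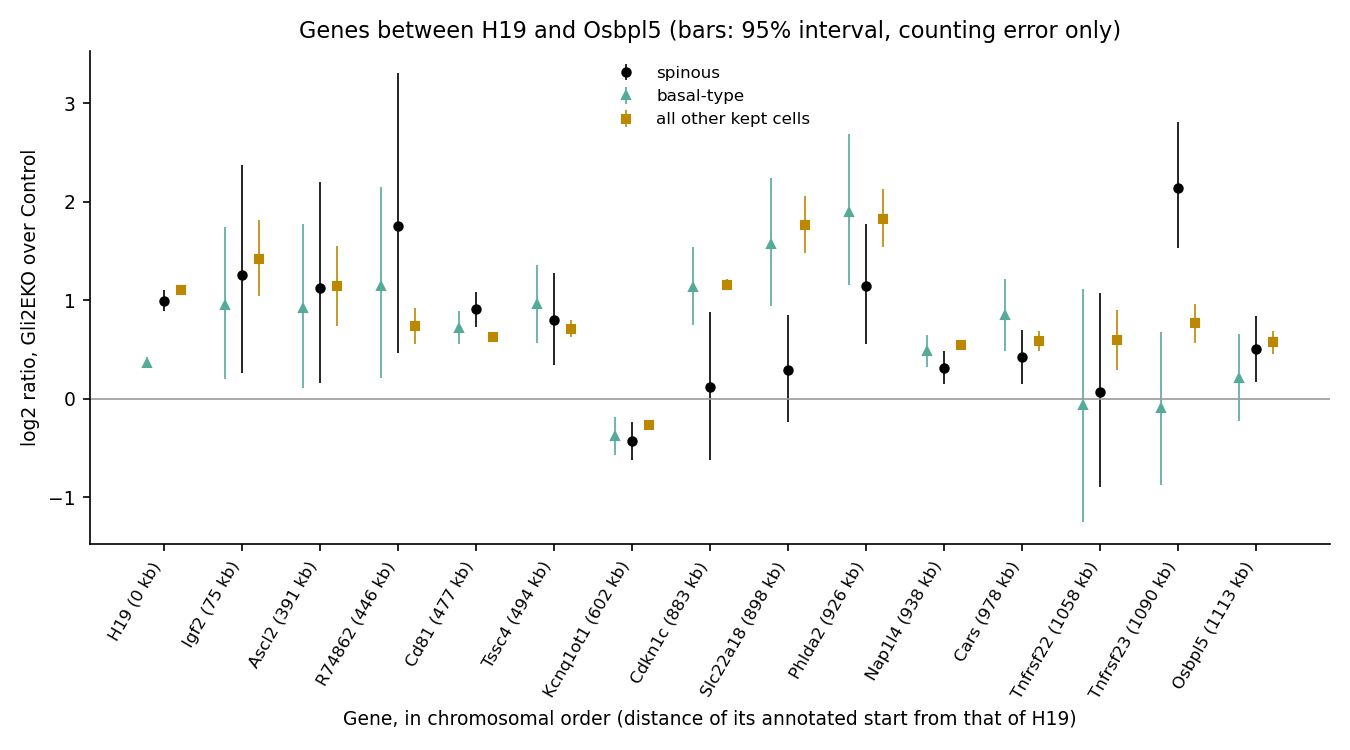
Log2 ratio of Gli2EKO over control CPM for the 15 genes from H19 to Osbpl5 with at least 20 UMIs in spinous cells, in chromosomal order with the distance of each start from that of H19, in spinous, basal-type and all other kept cells. Bars are exact 95% intervals for counting error only, and Kcnq1ot1 lies below 0 in all 3 classes while H19, Cd81, Tssc4 and Phlda2 lie above it.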

How the data were processed

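Single-cell RNA libraries (10x Genomics, 3' end) were prepared from 1 control and 1 Gli2EKO epidermis. The authors aligned the reads and deposited raw UMI counts per gene and cell barcode, made with Cell Ranger 9.0.1 on GRCm39 according to the submitters' processing notes, for 56694 genes in 6326 and 4296 barcodes (71021773 and 48866478 UMIs). The study used Seurat and a test over cells, which was not repeated because cells are not replicates.

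From these counts, cells were chosen by the limits given above. Counts were summed per library and class, given as CPM with exact Poisson intervals, and compared as log2 ratios with exact conditional binomial intervals, with a minimum of 100 UMIs over both libraries (scipy 1.17.1, numpy 2.4.6). Class contrasts took genes with at least 100 UMIs in both classes together in each library. They added 0.5 UMIs to each count and were called at 2-fold in each library. Basal-type cells held at least 50 UMIs per 10000 of Krt5 and Krt14, fewer than 10 of Krt1 and Krt10 and fewer than 5 of Krt17, Sox9, Lhx2, Lef1 and Ptch1. Background cells held at least 10 UMIs of 7 immune and endothelial genes. Keratin-rich cells held at least 20 UMIs per 10000 of 13 keratins. Each cell was thinned at random to 2000 UMIs before the percentage with a transcript of a gene was computed, with Clopper-Pearson intervals. Doublets were scored with Scrublet (scanpy 1.11.5) and kept in the main result. Positions are from GENCODE vM39. The code was tested on simulated data. Of the genes that peaked in spinous cells, 1 is not reported here.

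Named were the genes of the lists, the 12 genes of largest and 12 of smallest genotype ratio with at least 200 UMIs, and the 20 highest and 10 lowest genes of each class contrast. The cells and lists were chosen with earlier results of these data known.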

Additional observations from a re-analysis of the deposited data

Results flagged for a closer look

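For 3 genes the genotype ratio in spinous cells lay past 1.5-fold one way and in basal-type cells past it the other way, and in each case the difference between the classes was not tested. Elovl4 had a log2 ratio of -0.59 in spinous cells (372 and 248 CPM) and 0.81 in basal-type cells (463 and 811 CPM). Acta2 had 1.52 in spinous cells (10.0 and 28.7 CPM) and -1.90 in basal-type cells (52.2 and 14.04 CPM), with 78.8% of its Gli2EKO spinous UMIs in 5 cells. The spinous ratio of Acta2 turned to -0.25 with a Krt1 and Krt10 minimum of 25 and to -0.17 when the cells were chosen after thinning, so the opposite directions did not hold there. Scd1, a fatty acid desaturase of sebocytes, had -0.77 in spinous cells (29.8 and 17.5 CPM) and 1.01 in basal-type cells (208 and 418 CPM), whose summed sebocyte markers were 648 and 1046 CPM.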

How the results depend on the processing

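The ratio of shares stayed between 2.12 and 2.33 under the other cell limits, doublet removal and thinning. The share moved to 9.19% in Gli2EKO with a Krt1 and Krt10 minimum of 25, to 2.97% and 6.37% with a minimum of 100, and to 5.52% and 10.99% of keratin-rich cells (ratio 1.99). Of cells with high Krt1 and Krt10 it was 89.5% and 92.8% (ratio 1.04). Counts of genes past 1.5-fold, higher and lower, were 550 and 980 with a minimum of 20 UMIs, and 4353 and 4255 with no minimum and 0.5 UMIs added. Without the 5 members with the most UMIs of each gene, an alternative chosen after seeing the data, 225 were higher. With a follicle limit of 2 for basal-type cells, 450 genes were lower in spinous cells, against 785. Ranked within each library, the log2 ratio of the highest over the lowest group was -3.11 and -2.59 for Krt14 and 1.41 and 1.23 for Krtdap. Thinned to 4000 UMIs, 16.2% of control cells held Mki67 and 93.4% Stfa1. Unthinned shares were 45.0% and 24.5% for Krt77, 36.8% and 27.2% for Mki67 and 97.7% and 98.8% for Stfa1. Ratios turned for Prr9 (-0.42) and Cnfn (-0.57) without the highest doublet scores, and for Acta2 with the minimum of 25 (-0.25) and after thinning (-0.17). They also turned without members holding follicle genes, chosen after seeing the data, for Prr9 (-1.86), Tchh (-0.078), Cnfn (-0.67), Krt27 (-0.73) and Krt28 (-0.13), and without the 5 top members for Prr9 (-0.61), Tchh (-0.14), Cnfn (-0.36), Krt27 (-0.080) and Krt71 (-0.84). Fewer cells by construction apart, the cause was not tested. Krt77 ranged from -2.27 to -1.78, Stfa1 from 0.83 to 0.98, H19 from 0.74 to 1.19 and Lrig1 from -1.26 to -0.99 over all 14 alternatives. No paired analysis was possible because each genotype has 1 library without a replicate number, and no replicate could be left out.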

Other observations

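Gm47283, named Erdr1y in newer annotation and placed on the Y chromosome, stood at 85.4 CPM in control and 16.2 CPM in Gli2EKO spinous cells (log2 ratio -2.40, -2.74 to -2.07). It has near-identical copies, among which reads can be split, so its value is uncertain. Xist had 0 UMIs in spinous cells of both libraries. Of 4 sex-linked genes with enough UMIs, all on the Y chromosome, 0 passed 1.5-fold, with log2 ratios from -0.37 to 0.06. With Xist at 0, the list summed to 237 and 208 CPM, so spinous cells of both libraries held Y transcripts without Xist. Metallothionein genes, which bind zinc and copper, passed 1.5-fold in 0 of 3 cases, with Mt1 at 763 and 1012 CPM and Mt2 at 319 and 403 CPM in spinous cells and 186 and 101 CPM and 61.3 and 21.1 CPM in granular cells. Fas, a death receptor, stood at 11.8 and 33.6 CPM and Adamts1, a matrix protease, at 100.2 and 29.0 CPM in control and Gli2EKO spinous cells.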
